A study of Homo sapiens with 18 samples.

Results

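HCC1937 is a human breast cancer cell line from a carrier of a germline BRCA1 mutation, and it makes a truncated BRCA1 protein. The study describes the libraries labelled OE as HCC1937 cells with a BRCA1 overexpression construct, and those labelled EV as HCC1937 cells with an empty vector. Both were sampled untreated and at 12 h and 24 h of exposure to olaparib (10 µmol/L), an inhibitor of PARP1 and PARP2, enzymes that mark DNA breaks with chains of ADP-ribose. The values below describe 6 of the 18 RNA-seq libraries, the 3 OE libraries treated for 12 h against the 3 untreated OE libraries, chosen by their sample titles. Levels of the other groups of 3 (OE at 24 h, EV untreated, EV at 12 h) are given only where named. All 18 libraries, EV at 24 h among them, entered the fit behind the p-values. Nothing in the labels says that replicates were separate cultures, so p-values measure the spread between libraries within groups, which may be technical.

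Several facts about the libraries come before the results. BRCA1 (ENSG00000012048.23), the targeted gene, had 166, 122 and 127 CPM (read counts scaled to a common library size) in the untreated OE libraries and 114, 129 and 126 CPM at 12 h. These groups overlapped, with a log2 fold change of -0.17 ± 0.11 (SE, n = 3 per group, adjusted p = 0.633). Untreated OE and untreated EV libraries averaged 138 ± 24.0 and 118 ± 7.69 CPM (SD, n = 3), a log2 difference of 0.24 ± 0.11 (adjusted p = 0.0654), so overexpression of BRCA1 was not called from the gene's counts. Reads of the construct and of the gene could not be separated here.

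A set of 14 epithelial markers was checked. They were all at or above 5 CPM in each of these 6 OE libraries, but 8 of the 14 were below 5 CPM in each of the 6 EV libraries untreated or at 12 h. EPCAM, an epithelial adhesion molecule, lay between 251.9 and 347 CPM in OE and had 1 read in all 6 EV libraries. KRT5, a basal keratin, lay between 1266 and 1740 CPM in OE and at 0.124 CPM or less in EV. VIM, a mesenchymal filament protein chosen after its values were seen, lay between 0.635 and 1.33 CPM in OE and between 252.5 and 334 CPM in EV. Of the genes tested, 13330 differed between the untreated lines. The OE libraries thus carry the markers of the labelled line and the EV libraries lack many of them, and each comparison with EV below is a comparison with libraries of that kind.

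Total counts were 15895450 to 16732025 in the untreated and 15536971 to 16501734 in the 12 h OE libraries. Untreated replicate 1 stood apart. Its level relative to the mean of the 6 libraries fell with the GC content of the gene (Spearman rho = -0.675 across 14587 genes, which are not independent replicates), whereas the other 5 libraries had rho between -0.096 and 0.484. The total calls and some, not all, of the list results below are therefore also given without it.

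Type I and type III interferons are secreted proteins that, through the kinases JAK1 and TYK2 and transcription factors that include STAT2 and IRF9, switch on antiviral genes at sites called ISREs. Chemokines such as CXCL10 are among the genes this route and NF-kB can switch on, and they attract T cells and natural killer cells. Entry into mitosis rests on another set of genes, transcribed late in the cell cycle, whose products (cyclin B, the kinases PLK1 and Aurora A) drive chromosome segregation.

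After 12 h, 312 of 18335 genes tested were called higher (1.7%) and 111 lower (0.605%) at a Benjamini-Hochberg adjusted p under 0.05 (edgeR's quasi-likelihood test). The 12 h and untreated libraries did not overlap for 311 of the 312 and for 109 of the 111. These genes were chosen by the same values, so this adds no support. Over all 18335 genes tested, the 12 h libraries lay wholly above the untreated ones for 1687 and wholly below for 1076. An unadjusted p under 0.05 in edgeR was reached by 2137 of them, in either direction. Rises were larger than falls: the median log2 fold change was 0.836 among genes called higher and -0.609 among genes called lower, and 113 rises but 12 falls were larger than 2-fold. Of the genes called higher, 91 stood in the lists of classic interferon-stimulated genes and of interferon ligands, receptors and signalling, and 221 did not. No gene of these lists was called lower. The lists do not hold every gene that interferons can switch on, and CXCL10, for example, counts among the 221. Without untreated replicate 1, 285 genes were called higher and 112 lower, of which 245 and 75 were shared with the calls from all libraries. With the 6 libraries fitted alone, 228 were called higher and 58 lower.

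**Figure D1:**
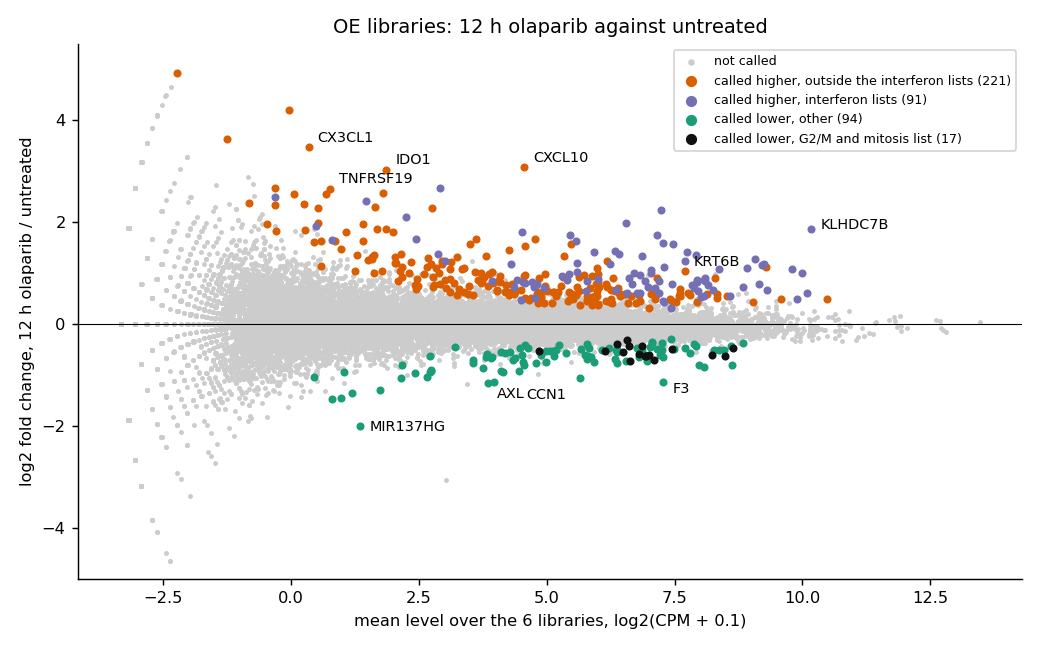
Log2 fold change of each gene tested (12 h olaparib over untreated, OE libraries, vertical axis) against its mean level over the 6 libraries on a log2 axis. The 221 rises outside the interferon lists (orange) reach from low-level genes such as CX3CL1 to KRT6B, and the 17 falls of the mitosis list (black) lie among well-expressed genes.

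The interferon genes are given briefly. IFNL1, a type III interferon, had 1.60, 2.03 and 2.39 CPM untreated and 11.9, 14.9 and 11.7 CPM at 12 h, a log2 fold change of 2.67 ± 0.21 (adjusted p = 2.58e-06). IFNB1, the type I interferon made by most cells, had 8 reads in the 3 untreated and 31 in the 3 treated libraries and was not called (log2 fold change 1.91, adjusted p = 0.129). Among the signalling genes, STAT2 (66.6 ± 3.45 to 167 ± 1.96 CPM), IRF1, TLR3, a sensor of double-stranded RNA, and the adaptor MYD88 rose. CGAS, the cytosolic DNA sensor, and its partner STING1 were not called (log2 fold changes -0.10 and 0.47). KLHDC7B, an interferon-stimulated gene, rose by 1.87 ± 0.12, from 495.6 ± 72.3 CPM untreated to 1815 ± 61.4 CPM at 12 h.

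Of 13 chemokines tested, 6 were called higher and none lower, against 1.7% and 0.605% of all genes tested. Their median log2 fold change was 0.92, against 0.004 over all genes tested. Of 115 classic interferon-stimulated genes 84 were called, with a median of 0.80. Leaving out 1 library at a time, which let 15 chemokines be tested, gave 4 or 5 chemokines called and medians from 0.45 (without treated replicate 3) to 0.99, below that of the interferon-stimulated genes in 5 of the 6 fits. CXCL10 (ENSG00000169245.6, GRCh38 chr4:76021117-76023497, minus strand), which binds CXCR3 on T cells, had 5.97, 4.80 and 4.09 CPM untreated and 39.7, 45.4 and 40.4 CPM at 12 h. Every treated library was above every untreated one, and the log2 fold change was 3.08 ± 0.22 (adjusted p = 1.86e-07). CXCL11, a second CXCR3 ligand encoded next to it (chr4:76033682-76041415, minus strand), had 1.23, 0.923 and 0.755 CPM untreated and 4.02, 7.79 and 5.52 CPM at 12 h. Its rise of 2.57 ± 0.32 on the log2 scale had an adjusted p of 0.000147.

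CX3CL1 (fractalkine), a membrane-bound chemokine, went from 9 reads in the 3 untreated libraries (0.0615, 0.308 and 0.189 CPM) to 103 reads at 12 h (2.01, 1.45 and 2.98 CPM). The groups did not overlap and the log2 fold change was 3.47 ± 0.49 (adjusted p = 0.000474), at a level so low that few reads carry it. CXCL1, a neutrophil attractant, rose by 1.09 ± 0.21, CCL28, an epithelial chemokine, by 1.03 ± 0.17, and CCL22 by 1.64 ± 0.40 on the log2 scale. CCL5, often grouped with CXCL10, had 770 reads in the untreated and 1057 in the treated libraries and was not called (adjusted p = 0.750). CXCL16 had 218 and 233 CPM and was not called.

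The sequence before the CXCL10 start is shown because its letters hold the 2 kinds of motif tied to the routes above. It covers the 250 bases upstream of the RefSeq start (GRCh38.p14 chr4:76023498-76023747, minus strand, 5′ to 3′), and capitals mark an ISRE-like match (GAAANNGAA, at -221 to -213) and matches to the NF-kB motif at -177 to -168 and -122 to -113. TNFSF10 (chr3:172523431-172523680, minus strand), described below, is set beside it with 2 ISRE-like matches, both read on the opposite strand, in capitals.
CXCL10: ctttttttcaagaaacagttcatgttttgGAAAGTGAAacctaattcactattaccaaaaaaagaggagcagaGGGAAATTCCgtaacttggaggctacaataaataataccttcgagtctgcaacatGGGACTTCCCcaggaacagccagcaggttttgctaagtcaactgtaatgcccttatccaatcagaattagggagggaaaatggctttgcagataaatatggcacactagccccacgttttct
TNFSF10: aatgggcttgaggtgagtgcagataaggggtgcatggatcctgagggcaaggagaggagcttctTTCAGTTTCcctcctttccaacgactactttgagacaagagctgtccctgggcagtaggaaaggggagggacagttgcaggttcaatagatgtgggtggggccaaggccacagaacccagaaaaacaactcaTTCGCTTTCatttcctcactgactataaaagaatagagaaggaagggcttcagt

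Motifs were counted on both strands of the 300 bases from 250 before to 50 after the RefSeq start, for the 12245 genes tested that had such a sequence. The ISRE-like motif stood in 57.4% of 68 promoters of genes called higher in the interferon lists, in 11.8% of 153 promoters of genes called higher outside them, in 3.53% of 85 promoters of genes called lower and in 6.35% of all. The NF-kB motif stood in 20.3% of the promoters of genes called higher outside the interferon lists, in 13.2% within them and in 13.1% of all. GAS (TTCNNNGAA) and AP-1 (TGANTCA) matches stood in 4.58% and 9.15% of the promoters of genes called higher outside the interferon lists, against 6.26% and 4.95% of all. A match says only that the letters are present. The ISRE-like and NF-kB matches of CXCL10 do not overlap each other.

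Immune checkpoint and tryptophan genes held 4 rises and no fall among 15 members tested, against 1.7% and 0.605% of all genes tested. Their median log2 fold change was 0.19. IDO1, the enzyme that starts tryptophan breakdown and restrains T cells, had 1.05, 0.615 and 0.629 CPM untreated and 5.59, 7.61 and 5.71 CPM at 12 h. That is a rise of 3.03 ± 0.35 on the log2 scale (adjusted p = 0.000122) with no overlap. WARS1, which loads tryptophan onto its tRNA, rose at a much higher level, from 408, 406 and 370.1 CPM to 882, 886.5 and 819 CPM (1.13 ± 0.08, adjusted p = 1.53e-08). LGALS9 (galectin-9), a ligand of the T-cell receptor TIM-3, had 23.8, 33.2 and 30 CPM untreated and 72.9, 64.2 and 63.0 CPM at 12 h, a rise of 1.20 ± 0.16. VTCN1 (B7-H4), an inhibitory ligand, rose by 0.74 ± 0.12. CD274 (PD-L1) averaged 2.04 CPM untreated and 3.67 CPM at 12 h and was not called (log2 fold change 0.84 ± 0.36, adjusted p = 0.339).

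In the MHC class I and class II lists only the coactivators were called, where 1.7% of all genes tested were called higher. At an unadjusted p under 0.05 in edgeR, 4 class I and 2 class II members were higher. Over all 18335 genes tested, 2137 had such a p in either direction. NLRC5, which switches on MHC class I genes, had 94.2, 94.3 and 109.6 CPM untreated and 186, 187 and 185 CPM at 12 h, a rise of 0.91 ± 0.10 (adjusted p = 4.74e-06), and it was the only one of 20 MHC class I members called. CIITA, its class II counterpart, rose by 0.86 ± 0.20 and was the only one of 9 class II members called. Its call was lost without any 1 of 5 libraries, with adjusted p up to 0.153 over all alternatives.

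Among 36 cytokines and receptors, 4 were called higher and 1 lower, against 1.7% and 0.605% of all genes tested. TNFSF10 (TRAIL), a death ligand, had 50.5, 43.2 and 36.1 CPM untreated and 98.0, 104.9 and 103.7 CPM at 12 h, a rise of 1.24 ± 0.13 (adjusted p = 2.91e-06). IL22RA1, a subunit of the IL-22 receptor of epithelia, rose by 1.62 ± 0.28 from 1.24 ± 0.206 CPM. IL1RN, the natural blocker of the IL-1 receptor, rose by 0.89 ± 0.16, and LIF, an IL-6 family cytokine, by 0.60 ± 0.16, a call lost without untreated replicate 1, without untreated replicate 2 and without any 1 treated library. TGFB2 was the member that fell, from 26.7, 22.3 and 20.5 CPM to 9.48, 13.5 and 13.3 CPM, a call lost without treated replicate 1. TGFB3, outside this list, was called higher (1.04). Of 27 NF-kB subunits, inhibitors and targets, 1 was called, SOD2, a mitochondrial superoxide dismutase (identifier named by GENCODE release 29), which rose by 0.44 ± 0.08 from 148 ± 3.07 CPM. NFKBIA and TNFAIP3, the feedback inhibitors, had log2 fold changes of 0.03 ± 0.10 and 0.31 ± 0.13 and were not called. GSDMB, a pore-forming gasdermin, and C1S, a complement protease, also rose (0.50 ± 0.11 and 0.75 ± 0.11).

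CD14, a co-receptor for bacterial lipopolysaccharide that monocytes are known for, had 31.4, 47.9 and 42.2 CPM untreated and 83.3, 74.4 and 75.0 CPM at 12 h (0.94 ± 0.15, adjusted p = 0.000612). It was the only one of 6 leukocyte markers tested that was called. The summed level of the 20 leukocyte markers was 40.0 to 55.3 CPM untreated and 82.7 to 91.3 CPM at 12 h, of which CD14 made up most. PTPRC (CD45), which defines leukocytes, averaged 1.09 and 0.930 CPM, and 9 of the 20 had no read in the 6 libraries or no entry in the table. The part of other cells in the rise of CD14 was not tested. The 15 fibroblast and endothelial markers summed to 98.6 to 117 CPM untreated and 118 to 122 CPM at 12 h, with 0 of 7 called. Of these 7, 1 had an unadjusted p under 0.05, as had 2137 of all 18335 genes tested, and DESeq2 called 1.

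**Figure D2:**
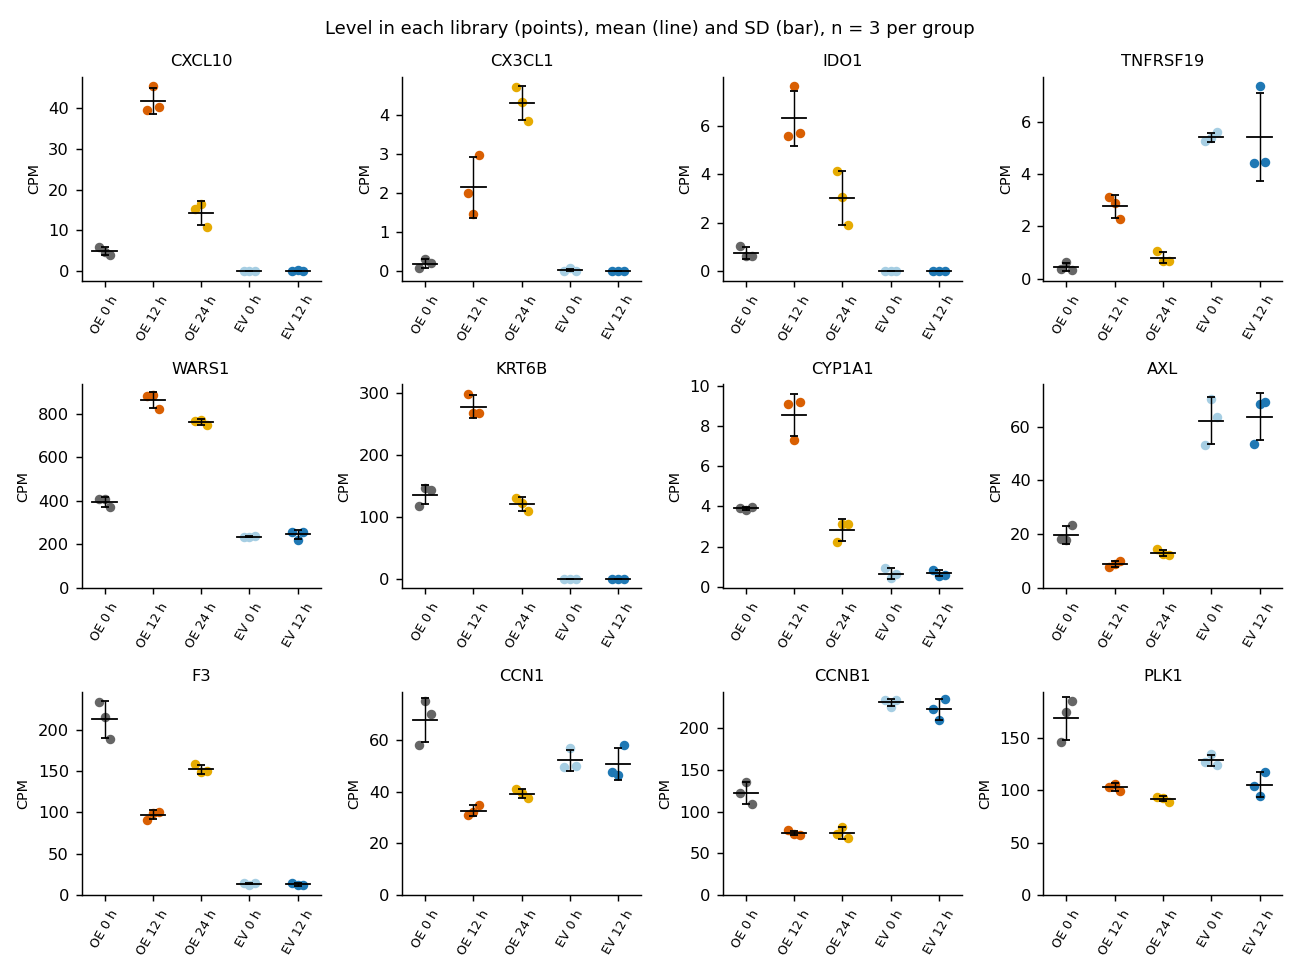
Level in CPM of 12 named genes in each OE library (untreated, 12 h, 24 h) and each EV library (untreated, 12 h), with the mean as a line and the SD as a bar (n = 3). For each gene the 3 OE libraries at 12 h lie wholly above or wholly below the 3 untreated ones. The means of CXCL10, IDO1, TNFRSF19, WARS1, KRT6B, CYP1A1, AXL, F3 and CCN1 lie nearer to the untreated mean at 24 h than at 12 h. Those of CX3CL1 and PLK1 lie further from it, and that of CCNB1 is about the same.

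Of the rises, 180 stood in no list. Among those with a mean of at least 1 CPM, TNFRSF19 (TROY), a receptor of the TNF family that marks some epithelial stem cells, had 0.369, 0.615 and 0.315 CPM untreated and 3.14, 2.90 and 2.29 CPM at 12 h. This rise of 2.66 ± 0.33 on the log2 scale (adjusted p = 3.37e-05) rests on 21 reads untreated and 134 at 12 h. TCIM (TC1), a small protein tied to Wnt signalling, rose from 2.58, 2.46 and 1.76 CPM to 10.6, 12.4 and 10.1 CPM (2.28 ± 0.22, adjusted p = 1.22e-06). NRG2, a ligand of the ERBB receptors, rose by 2.28 ± 0.38 (0.455 ± 0.130 to 2.24 ± 0.499 CPM), and FAIM2, an inhibitor of Fas-mediated death, by 2.55 ± 0.40 (0.435 ± 0.192 to 2.59 ± 0.383 CPM). All 4 kept their direction and their call when any single library was left out.

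Other large rises in no list were non-coding. NRIR, a long non-coding RNA beside the interferon genes CMPK2 and RSAD2, rose by 1.87 ± 0.25 (1.51 ± 0.220 to 5.53 ± 1.02 CPM), and the annotation types it as antisense. GBP1P1, a pseudogene of the interferon-induced GBP1, rose by 2.30 ± 0.29, and reads of the parent gene could be counted there. TM4SF18-AS1 (2.37 ± 0.45) is typed as antisense too, and the counting strand is not given in the sources used here. The reads of NRIR and TM4SF18-AS1 therefore cannot be told apart from those of any gene that overlaps them on the other strand. LINC02487 rose by 1.97 ± 0.35.

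Keratinocyte genes held 5 rises and no fall among 45 members tested, against 1.7% and 0.605% of all genes tested. Their median log2 fold change was 0.32. KRT6B, a keratin of activated and wounded epithelium, had 118, 147 and 143 CPM untreated and 299.7, 269 and 268 CPM at 12 h, a rise of 1.04 ± 0.11 (adjusted p = 6.22e-05) with no overlap. KRT13, a keratin of stratified mucosa, rose by 0.90 ± 0.18, DSG3, a desmosomal cadherin, by 0.72 ± 0.13, KRT6A by 0.61 ± 0.12 and KRT15 by 0.49 ± 0.11. KRT6A and KRT6B are near-identical copies, so the share of reads counted for each is uncertain. IVL and FLG, markers of terminal differentiation, had log2 fold changes of -0.15 and -0.30 and were not called. The 18 breast epithelial markers tested held no call, with a summed level of 10960 to 13670 CPM untreated and 11720 to 13050 CPM at 12 h. Of these markers 4 had an unadjusted p under 0.05, as had 2137 of all 18335 genes tested, and DESeq2 called 1.

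In the stress and metabolic lists that follow, 1 to 4 members were called higher, where 1.7% of all genes tested were. In lists of these sizes a single call already lies above that share. The AP-1 and stress response lists, with 4 each, had medians of 0.19 and 0.22. ATF3, a transcription factor of many stress routes, had 11.6, 12.2 and 11.2 CPM untreated and 21.03, 20.6 and 21.3 CPM at 12 h (0.85 ± 0.11, adjusted p = 3.85e-05), and DUSP6, a phosphatase that limits ERK, rose by 1.31 ± 0.18. Both belong to the AP-1 and immediate early list, in which 4 of 31 were higher and 1, CCN1, lower. In the integrated stress and unfolded protein response list 4 of 33 were higher (CREB3L2, XBP1, HERPUD1 and ERN1, the sensor that splices XBP1), by 0.39 to 0.82, and none was called when the 6 libraries were fitted alone. CYP1A1, the prototype target of the aryl hydrocarbon receptor, rose from 3.94, 3.82 and 3.96 CPM to 9.10, 7.31 and 9.21 CPM (1.13 ± 0.20, adjusted p = 0.00189) and was the only one of 12 members of its list called. AKR1C1 was the only one of 27 NRF2 targets called (0.58 ± 0.12), ACSS2 the only one of 34 lipid synthesis genes (0.45 ± 0.10), and the call of ACSS2 was kept in 6 of 16 alternatives. The medians of these last 3 lists were 0.06, 0.07 and 0.10.

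In the list of cell death genes 2 of 23 were called higher, TNFSF10 and GSDMB given above, against 1.7% of all genes tested. The median of the list was 0.20. Single genes named besides were the cell cycle inhibitor CDKN1A, which rose from 66.1, 73.5 and 79.7 CPM to 118, 100.2 and 114 CPM (0.60 ± 0.11, adjusted p = 0.00238), the stress cytokine GDF15 from 7.81, 14.2 and 12.6 CPM to 23.5, 22.1 and 21.01 CPM (0.94 ± 0.18, adjusted p = 0.00297), and PMAIP1 (NOXA). The call of PMAIP1 (adjusted p = 0.0495) was lost in 11 of 16 alternatives. In EV, CDKN1A and GDF15 had log2 fold changes of 0.60 ± 0.12 and 0.90 ± 0.18, short of the threshold (adjusted p = 0.0898 and 0.0868), and the differences between the lines were -0.00 ± 0.15 and 0.05 ± 0.25.

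Genes of G2 phase and mitosis made up the largest group of falls in the lists. Of 46 members, all tested, 17 were called lower and none higher, against 0.605% of all genes tested, and the median log2 fold change was -0.43. The 12 h libraries lay wholly below the untreated ones for 32 of the 46, against 1076 of all 18335 genes tested. A positive value was seen for 1 member, NUSAP1 (0.83, adjusted p = 0.443). CCNB1 (cyclin B1, ENSG00000134057.15), the partner of CDK1 at mitotic entry, had 122, 135.5 and 109.1 CPM untreated and 77.6, 73.2 and 72.1 CPM at 12 h, a fall of 0.72 ± 0.10 on the log2 scale (adjusted p = 0.000115). PLK1 (ENSG00000166851.15), a kinase of mitotic entry, fell by 0.71 ± 0.10, from 146, 175 and 186 CPM to 103, 107 and 99.6 CPM (adjusted p = 0.000118). AURKA (Aurora A) had 152, 167 and 145 CPM and then 103, 104 and 96.9 CPM, and NEK2, a kinase of centrosome separation, 148, 135 and 118 CPM and then 89.3, 90.2 and 86.2 CPM.

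The other members called lower were the anaphase-promoting complex genes CDC20 and UBE2C, the securin PTTG1, the cyclins CCNA2 and CCNB2, the checkpoint kinase BUB1B, the centromeric histone CENPA, the kinesins KIF20A and KIF4A, the spindle factor TPX2, ANLN, which builds the cleavage furrow, and BIRC5 and CDCA8 of the chromosomal passenger complex. Their log2 fold changes ran from -0.63 (CDC20) to -0.32 (CDCA8). CDK1 (-0.40, adjusted p = 0.163), MKI67 (-0.22, adjusted p = 0.639) and FOXM1, a transcription factor of this gene set (-0.09, adjusted p = 0.747), were not called. Library by library, the median of the 46 genes relative to the untreated mean was 0.17, -0.01 and -0.13 in the untreated and -0.43, -0.39 and -0.43 in the 12 h libraries. Without untreated replicate 1, the highest of the untreated ones, 11 were called lower and the median was -0.33. With the GC and length trend of each library removed, 37 were called lower and the median was -0.41, and with the 6 libraries fitted alone 6 were.

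**Figure D3:**
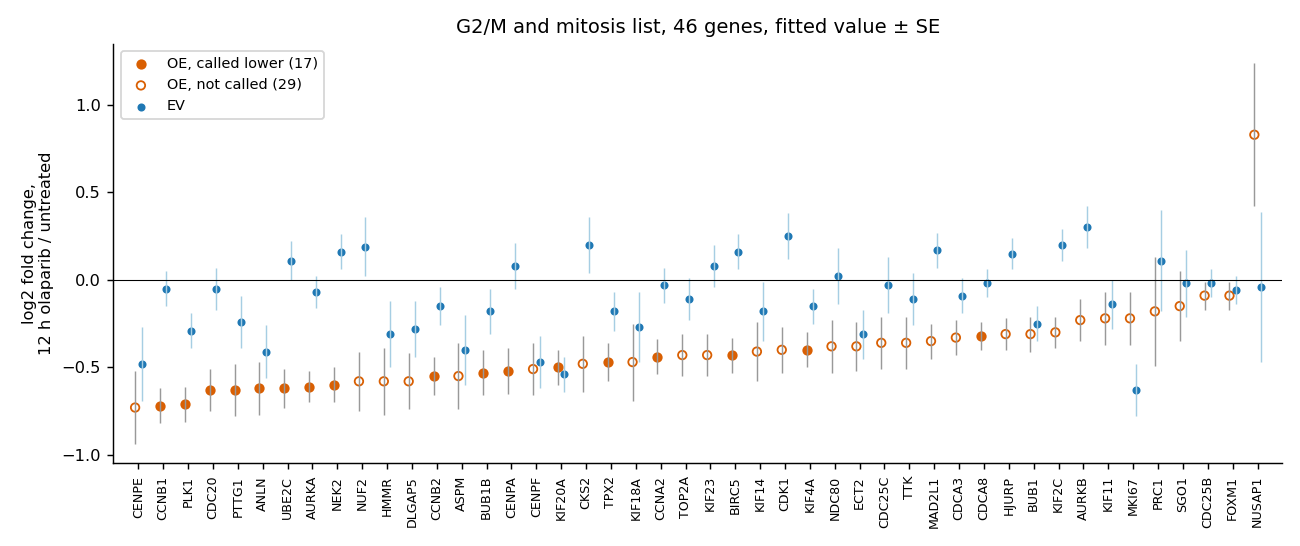
Log2 fold change at 12 h (fitted value ± SE, vertical axis) of the 46 genes of the G2/M and mitosis list in the OE libraries (orange, filled where called) and the EV libraries (blue), ordered by the OE value. In OE 17 are called lower and 45 lie below 0, and the EV values have a median of -0.06.

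The upstream sequences of CCNB1 and PLK1 are shown because both fell and late cell cycle promoters are known for CCAAT boxes and a short element called CHR (TTTGAA) near the start. They cover the 250 bases before the RefSeq starts (GRCh38.p14 chr5:69166900-69167149 and chr16:23678639-23678888, plus strand). GENCODE release 29 places the outermost start of each gene further upstream, at 69167010 for CCNB1, inside this window, and at 23677656 for PLK1, before it. Capitals mark CCAAT at -87 to -83 and -55 to -51 in CCNB1, and CCAAT at -73 to -69 and CHR at -29 to -24 in PLK1.
CCNB1: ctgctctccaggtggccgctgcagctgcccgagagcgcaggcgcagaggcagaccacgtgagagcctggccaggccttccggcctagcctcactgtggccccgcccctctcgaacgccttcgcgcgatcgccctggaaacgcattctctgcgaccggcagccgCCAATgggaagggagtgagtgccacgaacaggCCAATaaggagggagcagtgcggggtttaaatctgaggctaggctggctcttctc
PLK1: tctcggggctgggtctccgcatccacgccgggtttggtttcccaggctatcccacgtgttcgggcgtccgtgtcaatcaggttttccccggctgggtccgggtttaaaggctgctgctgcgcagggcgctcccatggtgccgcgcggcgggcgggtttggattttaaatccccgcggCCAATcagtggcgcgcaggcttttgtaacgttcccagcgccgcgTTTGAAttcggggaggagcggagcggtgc

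These 2 motifs were picked after the falls were seen. On both strands of the 300 bases, CHR stood in 61.5% and CCAAT in 84.6% of the 13 mitosis genes called lower that had a promoter sequence, in 70% and 80% of all 40 such members tested, and in 10% and 36.3% of all genes tested. Among all 85 genes called lower the shares were 27.1% and 51.8%. Both motifs were thus common in the list whether or not a member was called.

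Genes in no list with known mitotic roles were also among the falls, and these were picked after their values were seen. UBE2S, a ubiquitin enzyme of the anaphase-promoting complex, fell by 0.80 ± 0.16 (501 ± 128 to 288 ± 34.8 CPM), KPNA2, an importin, by 0.52 ± 0.08, KNSTRN, a spindle protein, by 0.52 ± 0.10, FAM83D by 0.48 ± 0.08, HMGB2 by 0.51 ± 0.11 and RACGAP1, of the central spindle, by 0.30 ± 0.08. By contrast the 45 DNA replication and S phase genes held no call (median log2 fold change 0.04), nor did the 34 replication-dependent histones (median -0.22), whose non-polyadenylated RNA depends on how the RNA was selected. At an unadjusted p under 0.05, which 2137 of all 18335 genes tested reached, 2 replication genes were higher and 4 histone genes lower. DESeq2 called none of the former and 1 of the latter.

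Several pathways tied to olaparib, BRCA1 or the study's question held no call. These were 41 genes of homologous recombination and the Fanconi anaemia pathway (median log2 fold change 0.03), 19 PARP family members, PARG and partner genes outside the interferon lists (median -0.01) and 73 of the spliceosome (median -0.08), whose members with the lowest p were UBE2T (-0.21 ± 0.10), PARP16 (0.58 ± 0.17) and SNRPA1 (-0.35 ± 0.12). At an unadjusted p under 0.05 edgeR had 0, 2 and 0 of them higher and 0, 0 and 8 lower, and DESeq2 called 0, 1 and 0. Over all 18335 genes tested, 2137 had such a p in edgeR, in either direction. The 76 cytosolic ribosomal proteins, the 74 nuclear and 13 mitochondrial respiratory chain genes also had 0 called, with medians of -0.12, -0.08 and 0.08. DESeq2 also called 0 of each, and an unadjusted p under 0.05 was reached by 1 ribosomal protein gene with a higher and 5 with a lower level. PARP9, PARP10, PARP12 and PARP14, which were counted among the classic interferon-stimulated genes, were called higher (0.87, 0.78, 0.60 and 1.09). A median for the ribosomal proteins of -0.23 without untreated replicate 1 and 0.07 without untreated replicate 2 shows how far single libraries move such lists.

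**Figure D4:**
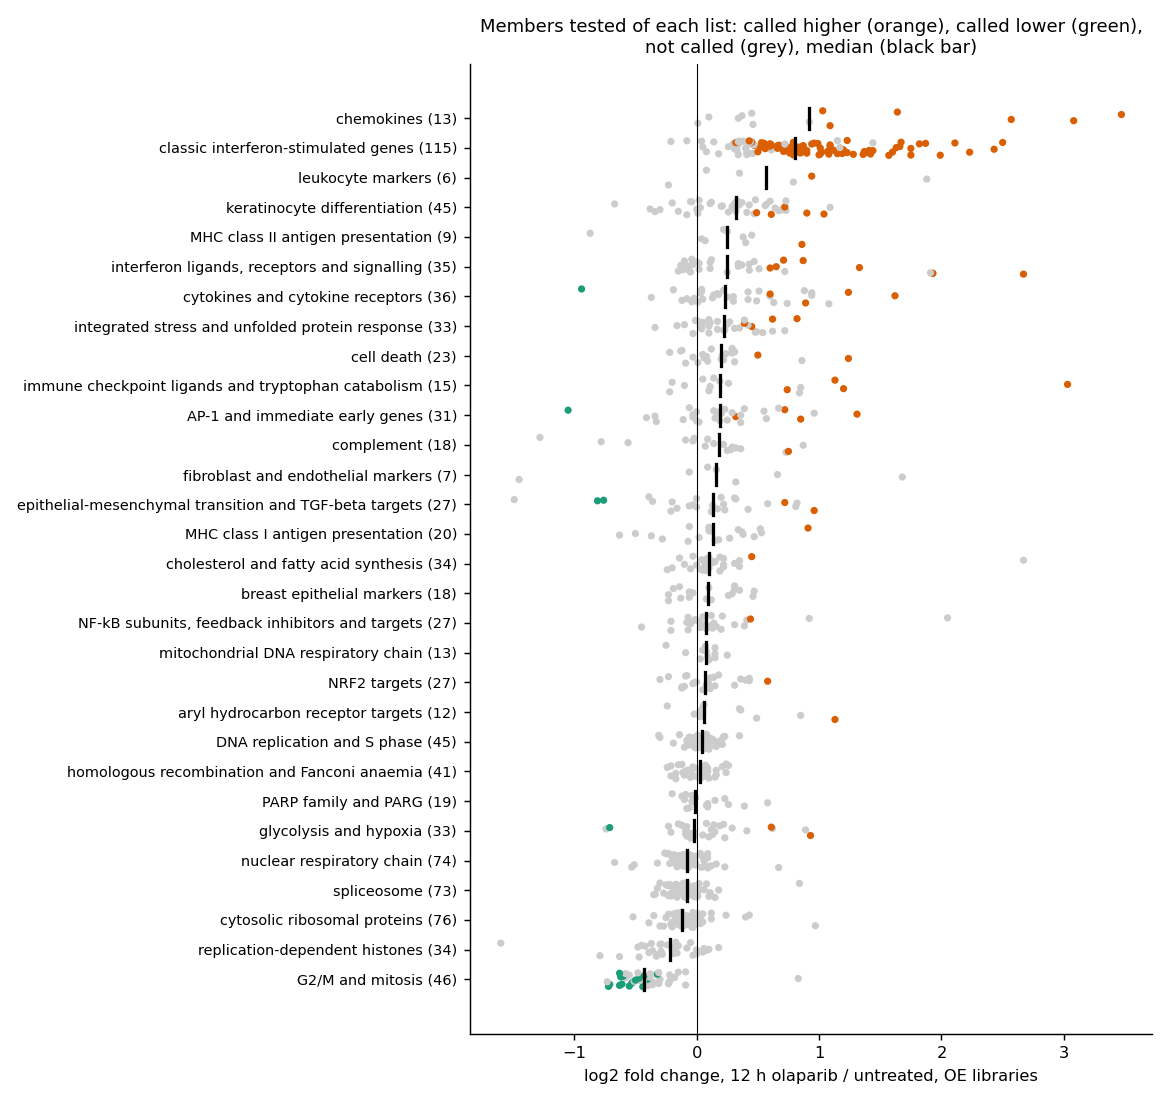
Log2 fold change at 12 h of the members tested of each of 30 gene lists (number tested in brackets), each point a gene, with the list's median as a black bar. The medians of the chemokines (0.92) and classic interferon-stimulated genes (0.80) lie highest with all 6 libraries, and the G2/M and mitosis list lies lowest (-0.43).

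The falls with the largest changes were mostly in no list. Tissue factor F3, which starts blood clotting (ENSG00000117525.14, chr1:94529225-94541800), had 234, 215.5 and 189.5 CPM untreated and 91.3, 99.3 and 101 CPM at 12 h, a fall of 1.13 ± 0.11 (adjusted p = 9.42e-07). AXL, a receptor tyrosine kinase, had 18.02, 17.7 and 23.5 CPM and then 7.72, 8.88 and 9.90 CPM (-1.16 ± 0.15, adjusted p = 6.08e-05). CCN1 (CYR61), a matricellular protein, had 58.1, 74.9 and 70.1 CPM and then 30.9, 32.0 and 34.9 CPM (-1.05 ± 0.11, adjusted p = 5.68e-06). In each the 12 h libraries lay wholly below the untreated ones, and no left-out library removed these calls. Its relative CCN2 (CTGF) moved the other way, from 6.07 ± 0.451 to 9.99 ± 0.516 CPM (0.72 ± 0.14, adjusted p = 0.00576).

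NRG1, an ERBB ligand, fell by 1.14 ± 0.19 from 21.4 ± 2.41 CPM, the opposite direction to NRG2 above. TPM1, a tropomyosin, had 346, 336 and 285 CPM untreated and 184, 191 and 176 CPM at 12 h, a fall of 0.81 ± 0.10 (adjusted p = 2.29e-05). THBS1 (thrombospondin) fell by 0.76 ± 0.10. Both TPM1 and THBS1 belong to the epithelial-mesenchymal transition and TGF-beta list, in which FN1 (fibronectin) and CCN2 rose. So 2 of 27 were called each way, against 1.7% of all genes tested called higher and 0.605% lower. ADM (adrenomedullin), a hypoxia target, fell by 0.71 ± 0.14, while NDRG1 and PFKFB4 of the same glycolysis and hypoxia list rose by 0.61 ± 0.13 and 0.93 ± 0.21. Both of these calls were lost without untreated replicate 1, and that of PFKFB4 also without treated replicate 2 or 3.

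The steepest fall was of MIR137HG, the host transcript of miR-137, from 5.78, 2.83 and 3.15 CPM to 0.942, 0.604 and 1.40 CPM (-2.0 ± 0.38, adjusted p = 0.00931), a call lost without treated replicate 2. CLDN11, PRR16, PLAC8 and DENND2A, each at 5.86 CPM or less untreated, and HIF1A-AS3, a transcript antisense to HIF1A whose reads cannot be told apart from its partner's, fell by 1.04 to 1.48. Each of these 5 calls was lost in 4 to 6 of the 6 fits that left out 1 library.

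The levels at 24 h are set beside those at 12 h without a test, since both share the untreated libraries. At 24 h CXCL10 was at 14.3 ± 2.96 CPM, IDO1 at 3.03 ± 1.11, TNFRSF19 at 0.797 ± 0.213, KRT6B at 121 ± 11.1, KRT13 at 61.7 ± 4.05 and CYP1A1 at 2.82 ± 0.529 CPM, all below their mean at 12 h. TNFSF10 (138 ± 5.61 CPM), CX3CL1 (4.31 ± 0.435 CPM), C1S (68.9 ± 4.44 CPM) and CCN2 (13.8 ± 0.610 CPM) were above their mean at 12 h. WARS1, NLRC5 and LGALS9 were at 762 ± 13.3, 157 ± 5.10 and 62.8 ± 2.76 CPM. For CCNB1 and PLK1 the 24 h means were 74.5 ± 6.94 and 91.9 ± 2.41 CPM, against 74.3 and 103 CPM at 12 h, and for F3, AXL and CCN1 they were 152 ± 5.58, 12.98 ± 1.17 and 39.2 ± 1.76 CPM. For the mitosis list the median log2 fold change over the same untreated libraries was -0.25 at 24 h and -0.43 at 12 h.

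Whether the 12 h effect differed between the libraries labelled OE and EV was tested as an interaction. Olaparib for 12 h gave 5 rises and 3 falls in EV. The difference was called for 95 of 18335 genes (0.518%), 69 with a higher and 26 with a lower effect in OE, and these held 64 of the 312 rises and 17 of the 111 falls. TNFRSF19 was called, with a log2 difference of 2.65 ± 0.40 (adjusted p = 0.00202). It stood at 5.42 CPM in EV both untreated and at 12 h, above its level in treated OE. Of the mitosis list, CCNB1, AURKA, NEK2 and UBE2C were called for the difference (-0.66, -0.54, -0.75 and -0.73), while PLK1 (-0.42, adjusted p = 0.183) was not. KIF20A fell in EV (-0.54 ± 0.10, adjusted p = 0.0408) and in OE (-0.50 ± 0.10), with a difference of 0.04. AXL, F3, CCN1 and TPM1 were called, with differences of -1.19, -1.03, -1.01 and -0.80.

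For many rises this test could not be made, because EV held no reads of the gene. IDO1, CXCL11, KRT6B, DSG3, VTCN1, IL1RN and RSAD2 had 0 reads in the 3 untreated and the 3 treated EV libraries, and CXCL10 had 0 and 3. A difference that was not called for these genes therefore says nothing about the effect in EV. The number of differences also depended on 1 library: without untreated OE replicate 1 it was 772 (286 with a higher and 486 with a lower effect in OE).

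GC content moved with the comparison as well as with single libraries. Across the 14587 genes with a mean of at least 1 CPM, the log2 fold change had Spearman rho = 0.169 with GC content and 0.114 with transcript length, and its median rose from -0.061 in the lowest of 5 equal bins of GC content to 0.045 and 0.032 in the upper 2 bins. Without untreated replicate 1 the trend turned, with rho = -0.216 and medians from 0.073 to -0.096. The calls were not concentrated at either end: the median GC content was 50.4% for genes called higher, 48.0% for genes called lower and 48.7% for all, and the 5 bins held 30, 62, 83, 90 and 37 rises and 13, 25, 36, 20 and 17 falls. With a smooth GC and length trend removed from each library, 311 of the 312 rises and all 111 falls were called again, and the counts grew to 561 higher and 680 lower of 18076 genes, so that the share of rises among calls went from 73.8% to 45.2%.

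**Figure D5:**
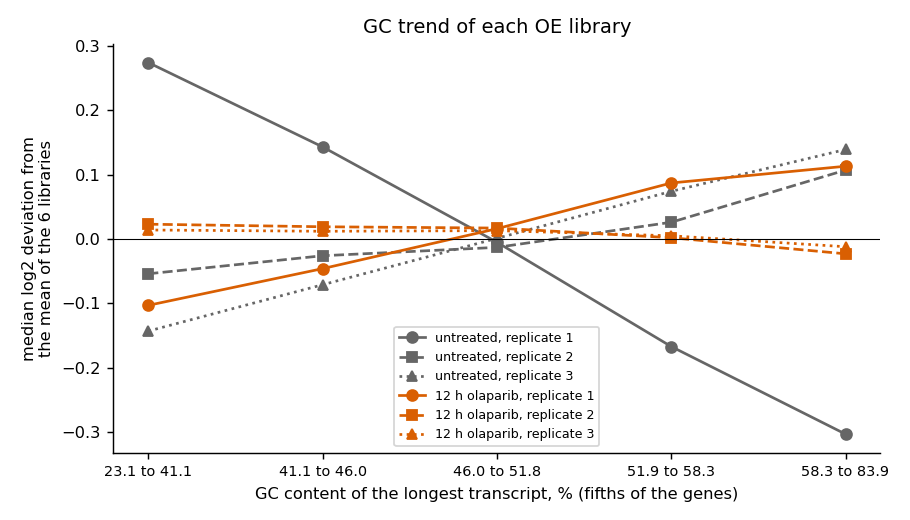
Median log2 deviation of each OE library from the mean of the 6 libraries (vertical axis) in 5 equal bins of the genes by GC content (horizontal axis, %). Untreated replicate 1 runs from 0.274 to -0.303, while the other 5 libraries stay within -0.143 and 0.139.

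The replicates of the 12 h group were close. Log2 CPM correlated between libraries of a group with Pearson's r from 0.978 to 0.993, lowest for pairs with untreated replicate 1. That library had r = 0.978 and 0.979 with its own group and 0.982 with each of treated replicates 2 and 3, so this measure did not separate the groups. The biological coefficient of variation fitted over all 18 libraries was 12.9%. Leaving out 1 treated library at a time left 209 to 228 rises and 48 to 63 falls.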

How the data were processed

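RNA from cells labelled HCC1937 was sequenced in 18 libraries, 3 for each of 6 groups. The authors deposited raw read counts per gene. Submitters' processing notes name HISAT2, featureCounts, DESeq2 and GRCh38 (hg38), with no version or strand setting. The 18 single-library tables equalled the joint table of 35044 genes. Symbols were found for 99.78% of identifiers. Groups and replicate numbers came from sample titles. The members and gene lists were chosen with earlier results of these data known.

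Genes were tested from the counts with edgeR 4.0.16 (R 4.3.3): filterByExpr by group, TMM, 1 mean per group over all 18 libraries, glmQLFit and glmQLFTest, with Benjamini-Hochberg adjustment over 18335 genes and a threshold of 0.05. The scripts were tested on simulated data. Levels are CPM on TMM-scaled library sizes, given as mean ± SD. CPM is not divided by gene length, so levels compare the same gene between libraries, not different genes. Gene positions, GC content and length (longest transcript) came from GENCODE release 29, and promoters from RefSeq (GRCh38.p14).

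Named genes were BRCA1 and, of the called genes that have a symbol, reach 1 CPM on average and do not overlap between groups, the 12 largest rises outside the interferon lists, the 8 largest in no list and the 10 largest falls. In each list up to 4 called members of lowest p in each direction were named, or the lowest-p member where none was called. Other genes are given for their role or to complete a group, and were chosen after their values were seen. The lists hold 31 sets, described by counts and medians without a set test. Results of some genes and of 1 list are not reported here.

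Alternatives were DESeq2 1.42.0 (its size factors, and its Wald test), other filters and fold thresholds, the 6 libraries alone, the replicate block, a smooth GC and length correction (mgcv 1.9.3), and each of the 6 libraries left out. P-values, levels and motif matches describe counts as deposited.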

Additional observations from a re-analysis of the deposited data

Results flagged for a closer look

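For 18 named genes, all called in OE, the 12 h effect differed between the libraries labelled OE and EV (interaction term of edgeR's quasi-likelihood test, adjusted p under 0.05). That term was called for 0.518% of all genes tested. Named genes were mostly picked by the size or p of their change in OE. This choice favours a larger effect in OE, so the number is a description only. The effect was higher in OE, as a log2 difference, for the interferon-stimulated genes IFIT2 (1.63), OAS1 (1.34), STAT2 (1.30) and IRF1 (0.68), for the MHC class I coactivator NLRC5 (0.78), the tryptophan and checkpoint genes WARS1 (1.06) and LGALS9 (1.85), and for TNFRSF19 (2.65), TCIM (2.27), CREB3L2 (1.12) and PFKFB4 (1.28). It was lower in OE for AXL (-1.19), F3 (-1.03), CCN1 (-1.01), TPM1 (-0.80), and for the mitotic genes CCNB1 (-0.66), AURKA (-0.54) and NEK2 (-0.75). The untreated lines differed in 13330 genes, and the part of that difference in these values was not tested.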

How the results depend on the processing

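The 312 rises and 111 falls became 308 and 111 with DESeq2's size factors. The counts moved by over 1.5 times in at least 1 of the 3 results with DESeq2's Wald test (447 rises, 224 falls and 326 line differences), without a filter on low counts (177 falls, 644 line differences), with a log2 fold change over 1 (113, 12 and 47), in the 6 libraries alone (58 falls) and with GC content and length corrected (561, 680 and 660), where rises made up 45.2% of calls against 73.8%. Replicate numbers did not pair the samples (correlations of deviations from -0.389 to 0.016). The fit with a replicate block gave 279 rises, 85 falls and 77 line differences, and with the GC and length correction too 532, 643 and 553. Leaving out 1 of the 6 libraries gave 209 to 330 rises, 48 to 138 falls and 49 to 772 line differences, the last without untreated replicate 1. The falls moved by over 1.5 times without any treated replicate (63, 48 and 60), and the line differences without untreated replicate 2 (53) or treated replicate 2 (49) or 3 (51). No named gene changed direction. Of 73 named genes called, 53 kept their call in each of these 6 fits and 20 did not, among them AKR1C1, KRT6A, TGFB2, GSDMB, HERPUD1 and XBP1, each lost only without 1 or 2 treated libraries. The causes of these shifts were not tested. Depth limits genes under 1 CPM, which rest on few reads.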

Other observations

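Several of the largest falls (AXL, F3, CCN1, TGFB2) belong to a published signature of targets of YAP and TAZ, coactivators that respond to cell contact and tension. The list was added after these falls were seen, so its count is a description only. Of 21 members tested 7 were called lower and 1, CCN2, higher, against 0.605% and 1.7% of all genes tested. The median log2 fold change was -0.14. The other members called lower were AMOTL2, a feedback inhibitor of YAP, from 99.6 ± 13.5 to 62.1 ± 0.584 CPM (-0.68 ± 0.10, edgeR adjusted p = 0.000383), CRIM1, from 155 ± 23.7 to 94.0 ± 4.93 CPM (-0.72 ± 0.11), and FJX1, from 42.5 ± 4.19 to 27.5 ± 2.94 CPM (-0.63 ± 0.14). Well-expressed members such as IGFBP3 (604 ± 14.8 and 628 ± 18 CPM) and MYOF were not called. Without untreated replicate 1 the counts were again 7 lower and 1 higher. At 24 h, against all the untreated OE libraries, the median log2 fold change of the list was -0.12.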
